A study of Mus musculus with 3 samples.

Results

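The genes described here were the mouse Zfp zinc finger genes that had an open chromatin window at a gene end. They were selected on 2 properties: a protein-coding RefSeq gene with a symbol of Zfp plus a number, and at least 1 deposited window whose midpoint lay within 1 kb of either end of the gene. This held for 251 of 367 such Zfp genes, which is 68.4% (exact Clopper-Pearson 95% interval 63.4 to 73.1). Among all 21887 protein-coding genes of the GRCm38 table the share was 46.6%, and among the 21520 others it was 46.3%. Having a window is what chose the 251 genes, so these shares are a description and nothing is read from them.

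ATAC-seq, which marks accessible DNA by where the Tn5 transposase can insert adapters, was run on molar cells of C57BL/6 mice at postnatal day 7.5. One library came from Gli1-CreER;Arid1a fl/fl mutants (n = 1) and 2 from Arid1a fl/fl controls without the Cre driver (n = 2), and mice were injected with tamoxifen at postnatal day 3.5 (1.5 mg per 10 g body weight). Cells were released with collagenase from the apical part of first molars, which holds dental papilla, forming root and attached tissue, and 5000 cells went into each library. Arid1a is a DNA-binding subunit of SWI/SNF chromatin remodellers, and Gli1-CreER removes floxed Arid1a where Gli1, a hedgehog target, is on, so other cells of the mutant keep it. The labels do not say whether animals were pooled.

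The deposited values are 1 pooled set: 13500 windows of 201 bp in mm10, and 5753 sites of the Plagl1 motif found by sequence within them. No value belongs to a single library, so mutant and control were not compared, depth is unknown and no value has a replicate error. Genes and windows are not replicates, so differences between gene groups are given with intervals that cover counting error only, and were not tested. Beside the 46.6% of all protein-coding genes, windows lay at ends of 6 of 12 dental mesenchyme markers, 4 of 8 odontoblast markers and 1 of 8 dental epithelium markers. They lay at 1 of 7 immune markers, 2 of 5 endothelial markers and 3 of 6 glial and neuronal markers. The mesenchyme and odontoblast shares were near that of all genes and no higher than that of glia and neurons, so these counts do not check the labelled tissue. Of the odontoblast markers, Col1a1, Col1a2, Sp7 and Alpl had a window at an end. Ibsp and Runx2 had none, nor had Dspp and Dmp1, which encode dentin matrix proteins of mature odontoblasts.

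Most Zfp genes encode proteins with arrays of C2H2 zinc fingers, small zinc-binding folds that each read a few bases of DNA. Many of these proteins carry a KRAB domain, which recruits Trim28 (KAP1) and with it the methyltransferase Setdb1, HP1 proteins and DNA methylation, and they are best known for silencing retrotransposons. KRAB zinc finger genes arose by repeated tandem duplication and lie in clusters. The Zfp symbol also covers proteins of other kinds, such as the mRNA decay factor Zfp36. Plagl1 (Zac1), whose motif was mapped here, is itself a C2H2 zinc finger factor, imprinted and known for arresting the cell cycle.

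The 8 sites that follow show what the deposited motif calls look like at the Zfp genes. They are the 7 best sites and, chosen after its value was seen, the site at the 3' end of Zfp53. Each is written 5' to 3' on its own strand, with mm10 coordinates, and the capitals mark the whole 10-base site.
Zfp64, chr2:168955326-168955335, minus strand: CAAGGGGCCA
Zfp711, chrX:112600641-112600650, minus strand: TAGGGGGCCA
Zfp593, chr4:134245596-134245605, plus strand: CGAGAGGCCC
Zfp90, chr8:106415563-106415572, plus strand: TGTGGGGCCT
Zfp112, chr7:24112406-24112415, plus strand: TGTGAGGCCT
Zfp113, chr5:138155617-138155626, minus strand: AGTGGGGCCA
Zfp131, chr13:119790893-119790902, plus strand: CCTGGGGCCC
Zfp53, chr17:21532432-21532441, plus strand: CGTGGGGCCT
HOMER's log-odds score of a site, whose log base is not stated in the file, was 6.89 at Zfp64, a factor known from Notch signalling and mesenchymal differentiation. It was 6.81 at Zfp711, whose human counterpart is linked to intellectual disability, and 6.75 at Zfp593, a small zinc finger protein of ribosome biogenesis. The Zfp90 site scored 6.73, Zfp112 6.66, Zfp113 6.59, Zfp131 6.59 and Zfp53 6.53. The site of Zfp131 recurs base for base at Zfp334, and so with the same score of 6.59. The same bases are found at 25 sites in windows of other genes. The 90 sites in windows of the Zfp genes scored 5.52 to 6.89 (median 5.98), and all 5753 sites 5.51 to 7.74 (median 5.94).

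RefSeq promoters (GRCm38.p6, from 250 bases before to 50 after the start) show such sites in context. Shown are 5 of the Zfp genes with a window that had a deposited site inside the printed stretch. They are on the strand of the gene, in lower case with each deposited site in capitals. Zfp131, Zfp687, Zfp677 and Zfp660 had the highest-scoring sites there. Zfp334 had 3 sites there, the best scoring 6.28, and its highest-scoring site lies outside the stretch. Zfp513, not shown, had a site scoring 6.31 inside the stretch at a start other than its outermost. Adjoining or overlapping sites run together.
Zfp334, chr2:165388210-165388509, minus strand: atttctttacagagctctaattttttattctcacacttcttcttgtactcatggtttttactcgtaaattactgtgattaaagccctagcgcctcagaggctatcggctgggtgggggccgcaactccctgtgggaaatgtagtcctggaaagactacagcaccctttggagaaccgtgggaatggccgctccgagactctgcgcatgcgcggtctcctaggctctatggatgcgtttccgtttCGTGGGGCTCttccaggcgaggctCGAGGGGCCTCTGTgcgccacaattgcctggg
Zfp131, chr13:119790683-119790982, minus strand: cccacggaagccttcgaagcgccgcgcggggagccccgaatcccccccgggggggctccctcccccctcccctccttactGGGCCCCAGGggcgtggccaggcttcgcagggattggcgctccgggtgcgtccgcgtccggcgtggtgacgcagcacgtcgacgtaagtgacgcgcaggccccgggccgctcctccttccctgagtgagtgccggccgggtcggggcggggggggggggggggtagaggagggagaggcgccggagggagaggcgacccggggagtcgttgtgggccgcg
Zfp687, chr3:95015408-95015707, minus strand: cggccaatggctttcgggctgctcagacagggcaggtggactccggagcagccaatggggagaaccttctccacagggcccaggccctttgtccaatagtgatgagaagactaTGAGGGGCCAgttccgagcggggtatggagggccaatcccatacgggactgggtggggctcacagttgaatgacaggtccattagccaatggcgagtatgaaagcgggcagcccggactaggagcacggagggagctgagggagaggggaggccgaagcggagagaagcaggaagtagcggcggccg
Zfp677, chr17:21383498-21383797, plus strand: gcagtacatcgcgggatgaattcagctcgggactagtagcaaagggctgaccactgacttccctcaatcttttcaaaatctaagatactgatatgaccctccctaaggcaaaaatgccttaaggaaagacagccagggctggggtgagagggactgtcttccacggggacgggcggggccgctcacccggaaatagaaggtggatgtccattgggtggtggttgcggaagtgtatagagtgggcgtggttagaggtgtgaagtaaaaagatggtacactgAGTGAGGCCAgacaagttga
Zfp660, chr9:122902998-122903297, plus strand: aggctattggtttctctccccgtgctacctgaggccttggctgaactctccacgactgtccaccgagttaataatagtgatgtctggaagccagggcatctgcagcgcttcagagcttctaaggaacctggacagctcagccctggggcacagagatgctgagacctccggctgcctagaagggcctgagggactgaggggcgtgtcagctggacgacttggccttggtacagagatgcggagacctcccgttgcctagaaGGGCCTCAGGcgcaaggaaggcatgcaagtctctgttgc
Zfp334 and Zfp521 had the most sites of the 251 genes, 5 each. At Zfp334 a plus-strand site (positions 165388228 to 165388237) and a minus-strand site (165388232 to 165388241) overlap, so the number of sites exceeds the number of separate stretches. The Zfp334 promoter was 53.3% GC with 5.35 CpG per 100 steps between neighbouring bases, against 76.7% GC and 12.04 CpG per 100 steps in the Zfp131 promoter. Zfp687, whose human counterpart is mutated in a form of Paget disease of bone, had a promoter of 62.0% GC with 5.02 CpG per 100 steps. Zfp677 had 52.0% GC and Zfp660 58.3% GC, both with 3.34 CpG per 100 steps.

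Zfp genes with a window were spread over all chromosomes but Y, which has no Zfp gene. The 6 chromosomes with the most Zfp genes are given here. Chromosome 7 held 67 of them among its 90 Zfp genes, and chromosome 17 held 36 among 41. Chromosome 13 held 19 among 32 and chromosome 8 held 18 among 25, while chromosome 4 held 8 among 27 and chromosome 2 held 7 among 24. For all protein-coding genes the share with a window was 38.5% on chromosome 7, 49.3% on chromosome 17, 49.9% on chromosome 13, 54.4% on chromosome 8, 48.5% on chromosome 4 and 46.0% on chromosome 2.

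With a cluster taken as at least 3 Zfp genes with gaps under 500 kb, 224 Zfp genes fell into 33 clusters. Of the 251 Zfp genes with a window, 157 (62.5%) lay in a cluster and 94 (37.5%) outside. A window was present at 70.1% of clustered Zfp genes (interval 63.6 to 76.0) and at 65.7% of the rest (57.3 to 73.5). In 11 clusters every gene had a window, and in 2, both on chromosome 2 (Zfp970 to Zfp931 and Zfp968 to Zfp966), none had. The large cluster Zfp160 to Zfp13 on chromosome 17, at positions 21008941 to 23599755, had windows at 20 of 23 genes. Zfp84 to Zfp146 on chromosome 7 (29768552 to 30169775) had them at 13 of 15, and Zfp871 to Zfp414 on chromosome 17 (32765496 to 33631716) at 11 of 11. The chromosome 13 cluster Zfp640 to Zfp273 had windows at 12 of 20 genes, and the chromosome 7 cluster Zfp180 to Zfp526 at 7 of 14. On chromosome 4, the cluster Zfp990 to Zfp933 (145510759 to 147849126) had windows at 2 of 16, namely Zfp978 and Zfp933.

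**Figure D1:**
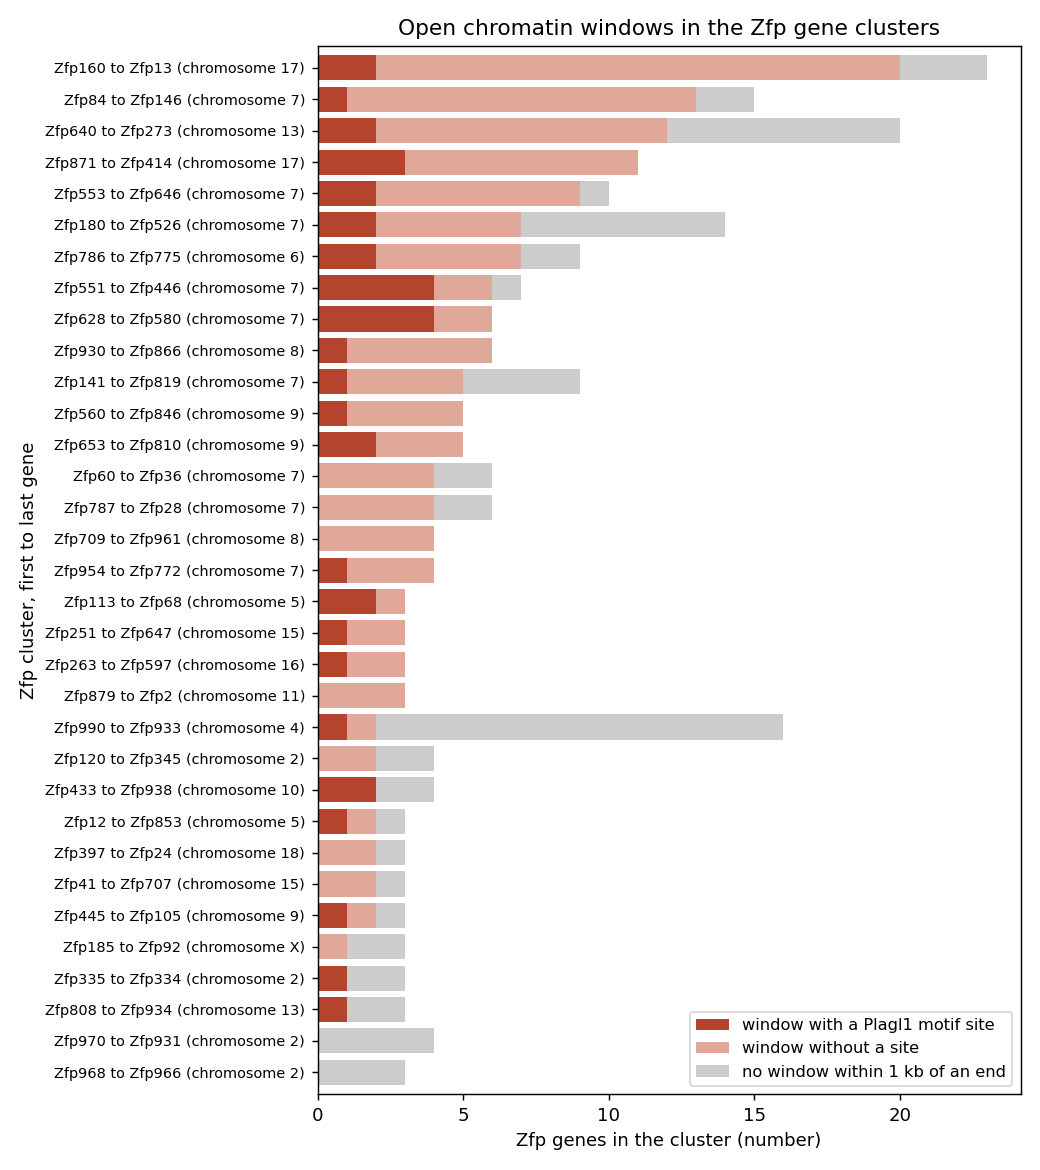
Number of Zfp genes in each of the 33 Zfp clusters (rows, ordered by genes with a window), divided into genes whose window held a Plagl1 motif site, genes with a window without a site, and genes with no window within 1 kb of an end. The cluster Zfp160 to Zfp13 had 20 of 23 genes with a window but sites at 2, while Zfp628 to Zfp580 had windows at all 6 genes and sites at 4.

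Clusters differed in base composition as well as in coverage. Over all Zfp genes with a window, the window nearest an end had a median GC content of 61.2% in clusters and 67.9% outside, and a median CpG of 6.5 and 10 per 100 steps. The median over the 20 genes of Zfp160 to Zfp13 was 54.0% GC with 4 CpG per 100 steps. In map order, the first windows of this cluster were at Zfp160 (54.2% GC), Zfp677 (50.7%), Zfp54 (58.2%), Zfp51 (60.2%) and Zfp53 (54.2%). They went on with Zfp948 (59.2%), Zfp983 (56.2%), Zfp760 (54.7%), Zfp995 (52.2%) and Zfp942 (53.2%). All 10 lay below the median of the clustered genes. In Zfp84 to Zfp146 the median was 61.7%, and its first 10 windows ran from 53.2% at Zfp84 to 71.1% at Zfp82, with 69.2% at Zfp568, a KRAB factor that silences a placental promoter of Igf2. In Zfp640 to Zfp273 the median was 57.0%, and the first 10 ran from 47.8% at Zfp457 to 66.2% at Zfp748. The highest cluster median was 76.9% GC, over the 2 windowed genes of Zfp12 to Zfp853. Among clusters with more windowed genes, Zfp786 to Zfp775 (7 genes) had 71.1% GC with 12.5 CpG per 100 steps, and Zfp628 to Zfp580 (6 genes) 69.9% GC with 11.3.

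Site counts are given per cluster beside a share of 33.4% with a site over all protein-coding genes with a window, and differences between clusters were not tested. A site lay in a window of 39 of the 157 clustered genes (24.8%, interval 18.3 to 32.4) and of 30 of the 94 others (31.9%, 22.7 to 42.3), with overlapping intervals. In the 7 clusters of 10 or more genes, 74 of 109 genes had a window and 13 of these a site (17.6%). In the 26 smaller clusters, 83 of 115 genes had a window and 26 of these a site (31.3%). The 20 windowed genes of Zfp160 to Zfp13 included 2 with a site, Zfp677 and Zfp53, and the 13 of Zfp84 to Zfp146 included 1, Zfp82. Of the 12 in Zfp640 to Zfp273, 2 had one, Zfp712 and Zfp456. Zfp871 to Zfp414 had sites at 3 of its 11 genes, which were Zfp799, Zfp870 and Zfp563. In the smaller clusters, 4 of 6 genes of Zfp628 to Zfp580 had a site: Zfp628 (score 5.99), Zfp579 (5.71), Zfp524 (5.54) and Zfp865 (5.98). So did 4 of the 6 windowed genes of Zfp551 to Zfp446, which were Zfp551, Zfp606, Zfp329 and Zfp128. These counts are small, and neighbouring genes of a cluster can share sequence by descent.

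The windows of Zfp genes were less rich in G and C than those of other genes. The 251 genes had 249 distinct windows, with a median GC content of 64.2% (95% interval of the median 61.7 to 66.2, quartiles 57.7 and 69.7). The 8829 windows of other protein-coding genes had a median of 68.7% (68.2 to 68.7, quartiles 62.7 and 73.6). Median CpG was 7.5 per 100 steps (7 to 8) at the Zfp genes and 10 at the others. For the window nearest an end, the 94 Zfp genes outside clusters had medians of 67.9% GC and 10 CpG per 100 steps. The 157 in clusters had 61.2% and 6.5, and other genes had 68.2% and 10. Windows under 55% GC made up 41 of 249 at Zfp genes (3.21% under 50% GC and 13.3% from 50 to 55%), against 2.20% and 4.09% at other genes. The distance from a window's midpoint to the nearest gene end had similar medians, 134 bp at Zfp genes and 138 bp at other genes.

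**Figure D2:**
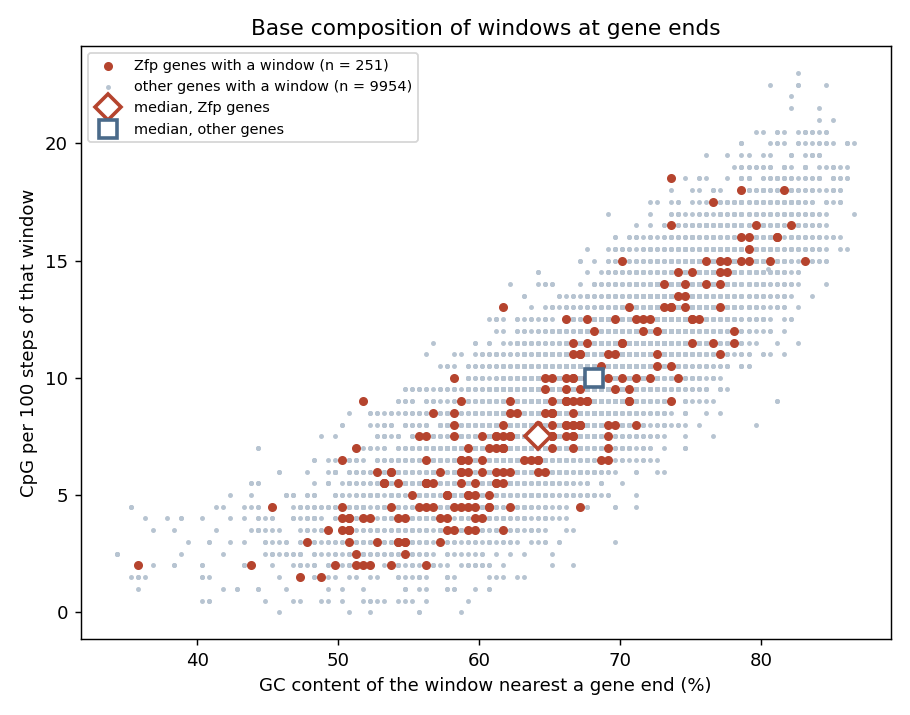
GC content (percent, horizontal) and CpG dinucleotides per 100 steps (vertical) of the window nearest a gene end, for 251 Zfp genes (red) and 9954 other protein-coding genes (grey); the large symbols are medians. The Zfp median is at 64.2% GC and 7.5 CpG per 100 steps, below and left of the median of other genes at 68.2% and 10.

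Single Zfp genes reached both ends of the range. The highest GC contents were 83.1% at Zfp592, 82.1% at Zfp598, a ubiquitin ligase that senses collided ribosomes, and 81.6% at Zfp746. The lowest were 35.8% at Zfp40, 43.8% at Zfp524 and 45.3% at Zfp933. The most CpG was found at Zfp771 (18.5 per 100 steps), Zfp318 (18) and Zfp746 (18), and the least at Zfp260 (1.5) and Zfp811 (1.5), followed by Zfp40 and other genes tied with it at 2. Of the windows just named, those of Zfp746 and Zfp524 held a site and the others did not. Of the promoters of these genes, that of Zfp592 (82.3% GC, 42 CpG) and that of Zfp260 (45.7% GC, 5 CpG) show the contrast, with each CpG in capitals.
Zfp592, chr7:80993434-80993733, plus strand: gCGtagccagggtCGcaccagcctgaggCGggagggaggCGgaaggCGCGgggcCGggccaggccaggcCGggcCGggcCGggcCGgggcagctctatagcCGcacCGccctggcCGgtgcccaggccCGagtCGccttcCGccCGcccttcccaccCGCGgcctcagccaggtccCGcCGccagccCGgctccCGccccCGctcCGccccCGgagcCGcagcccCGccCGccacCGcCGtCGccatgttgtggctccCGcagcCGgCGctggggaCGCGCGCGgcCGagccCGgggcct
Zfp260, chr7:30094826-30095125, plus strand: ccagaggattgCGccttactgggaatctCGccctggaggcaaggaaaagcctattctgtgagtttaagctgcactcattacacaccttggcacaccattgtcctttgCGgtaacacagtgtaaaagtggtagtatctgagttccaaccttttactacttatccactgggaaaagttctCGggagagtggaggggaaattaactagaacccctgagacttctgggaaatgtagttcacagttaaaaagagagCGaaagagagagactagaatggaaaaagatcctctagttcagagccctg
The RefSeq promoter table matched 210 of the 251 Zfp genes with a window and 95 of the 116 without. Median promoter GC was 55.5% in Zfp genes with a window (54.3 to 57.7), 50% in Zfp genes without one (48.3 to 53.0), 62.0% in other genes with a window and 49.7% in other genes without. Median CpG per 100 steps was 5.18 in Zfp genes with a window (4.35 to 5.69), 2.68 in Zfp genes without one (2.01 to 3.34), 7.36 in other genes with a window and 1.34 in other genes without. Zfp promoters with a window were thus lower in CpG than those of other genes with a window. Zfp promoters without a window were higher than those of other genes without. Of the Zfp promoters with a window, median CpG was 4.01 in clusters (3.68 to 4.68) and 6.02 outside (5.69 to 8.03).

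**Figure D3:**
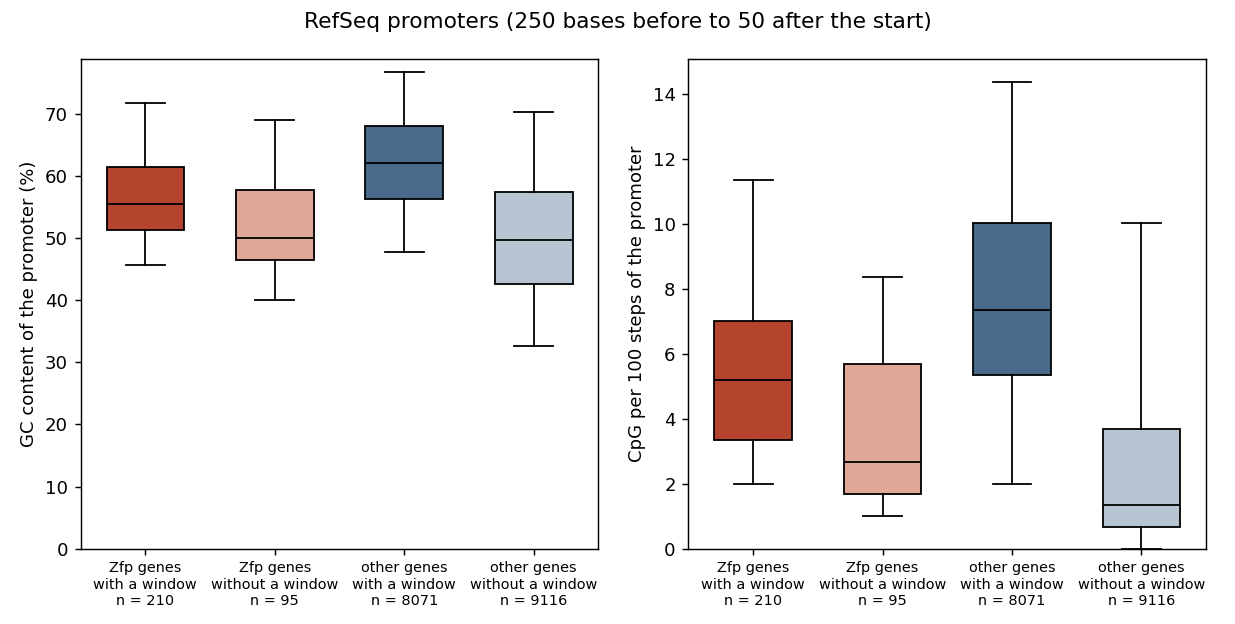
GC content (left, percent) and CpG per 100 steps (right) of RefSeq promoters of Zfp and other protein-coding genes with and without a window. Boxes span the quartiles with the median as a line, and whiskers the 5th to 95th percentile; median CpG was 5.18, 2.68, 7.36 and 1.34 from left to right.

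Windows of Zfp genes sat at the start of the gene. Of the 210 with a RefSeq start, 202 (96.2%) had the midpoint of the nearest window within 1 kb of a start, against 94.1% of 8071 other genes. The window contained a start in 50.5% of Zfp genes (43.5 to 57.4) and 45.2% of other genes (44.1 to 46.3). The midpoint lay downstream of the start in 142 Zfp genes (67.6%, 60.8 to 73.9), against 58.4% (57.3 to 59.4) of other genes. The median signed distance was 62 bp downstream (45 to 78) in Zfp genes and 37 bp (33 to 42) in other genes. At 4 genes a window was found near both ends or a second lay beside the first: Zfp174, Zfp329, Zfp53 and Zfp78 had 2 windows each, and the other 247 had 1. At Zfp53 the window at the start (21488904 to 21489104) was 54.2% GC with no site. The window near its 3' end (21532345 to 21532545) was 76.1% GC and held the site scoring 6.53, 43448 bp from the start. The midpoint of this window also lay 1280 bp from an end of the neighbouring gene Zfp52, so it cannot be credited to Zfp53 alone.

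**Figure D4:**
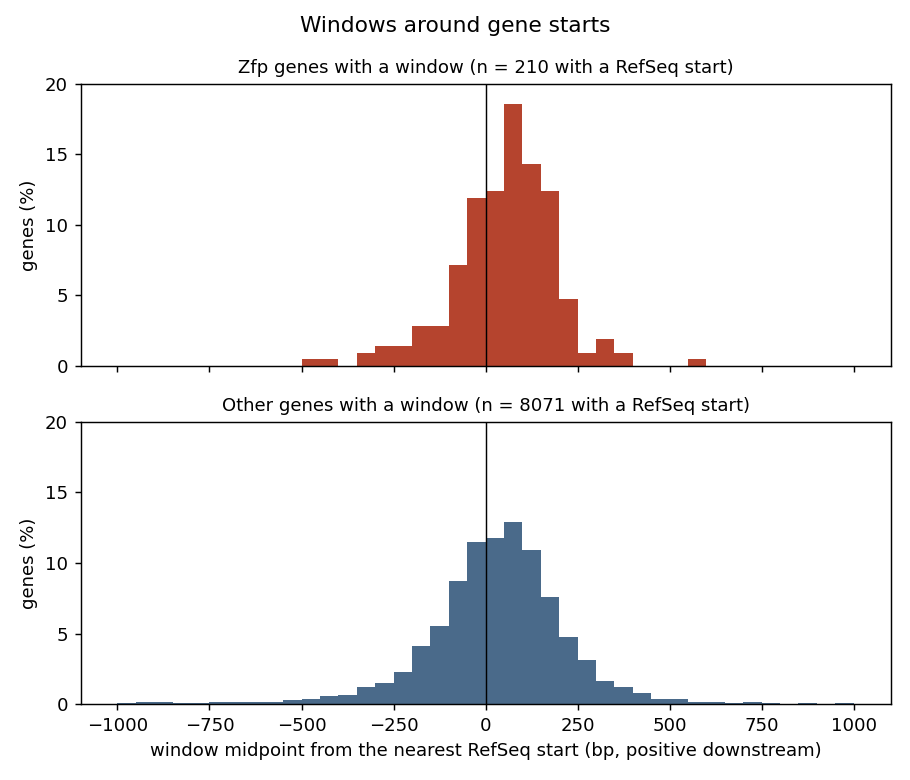
Distance of the midpoint of the window nearest a gene end from the nearest RefSeq start (bp, positive downstream, bins of 50 bp), as percent of genes, for Zfp genes (above, n = 210) and other genes (below, n = 8071); genes beyond 1000 bp are not drawn. The median lay 62 bp downstream in Zfp genes and 37 bp in other genes.

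Some windows lay within 1 kb of an end of more than 1 gene. A window was shared with another protein-coding gene by 33 of 251 Zfp genes (13.1%, 9.23 to 18.0), against 2801 of 9954 other genes (28.1%, 27.3 to 29.0). Partners of another kind included Bcs1l at Zfp142, Mrpl50 at Zfp189, Ppm1g at Zfp513, Cggbp1 at Zfp654 and Lpxn at Zfp91. In 6 pairs both partners were Zfp genes. Zfp942 with Zfp943, Zfp944 with Zfp758, Zfp784 with Zfp580 and Zfp786 with Zfp398 lie on opposite strands, while Zfp78 and Zfp28 run the same way. In the pairs on opposite strands, the midpoint of the shared window lay inside Zfp943, Zfp758 and Zfp784. It also lay inside both Zfp786 and Zfp398, which overlap. Relative to the nearest RefSeq start, the window lay at -5491 bp for Zfp786 and -13202 bp for Zfp580 (negative is upstream), so in the start table used here these genes do not start at it. The strand of Zfp646, the partner of Zfp668, was not in the promoter table. None of the 6 shared windows held a Plagl1 site, and their GC content ran from 53.2% at Zfp942 and Zfp943 to 73.6% at Zfp786 and Zfp398. Windows shared with a gene that is not protein-coding were about as frequent in both groups, at 14.3% of Zfp genes (10.3 to 19.3) and 12.9% of other genes (12.2 to 13.6).

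A Plagl1 site lay in a window of 69 of the 251 Zfp genes, which is 27.5% (22.1 to 33.5). Over all 10205 protein-coding genes with a window the share was 33.4%, and over the 9954 others 33.6% (32.6 to 34.5). Counted by windows, 69 of 249 Zfp windows held a site (27.7%, 22.2 to 33.7), against 32.9% of the windows of other genes (31.9 to 33.9) and 32.8% of all windows at ends of protein-coding genes. For sites at or above the median score of all sites, the shares were 16.5% of Zfp windows (12.1 to 21.7) and 18.0% of other windows (17.2 to 18.9). More than 1 site was found in 13 Zfp windows (5.22%, 2.81 to 8.76) and in 656 others (7.43%, 6.89 to 8.0). The Zfp share lay below that of all genes, with an interval whose upper bound reached it.

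Setting windows of like GC content side by side brought the groups closer in some bins and not in others. From 60 to 65% GC, 16 of 41 Zfp windows held a site (39.0%), against 31.6% of other windows. From 65 to 70% it was 20 of 58 (34.5%) against 34.0%, and at 75% and over 11 of 32 (34.4%) against 37.2%. From 50 to 55% it was 3 of 33 (9.09%, 1.92 to 24.3) against 24.1% (19.8 to 28.9), and from 70 to 75% 6 of 30 (20.0%, 7.71 to 38.6) against 34.6% (32.5 to 36.7). From 55 to 60% it was 11 of 47 (23.4%) against 26.4%, and under 50% 2 of 8 (25%) against 19.6%. By CpG per 100 steps, a site was held by 16.7% of Zfp windows under 4 (5 of 30), against 33.2% of other windows. From 4 to 6 the shares were 28.3% at Zfp genes and 31.3% at other genes, and from 6 to 8 they were 35.3% and 31.7%. From 8 to 10 they were 31% at Zfp genes and 34.5% at other genes, from 10 to 12 they were 32.3% and 32.5%, and at 12 and over 20.4% and 33.1%. The intervals of both groups overlapped in every GC bin and every CpG bin.

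**Figure D5:**
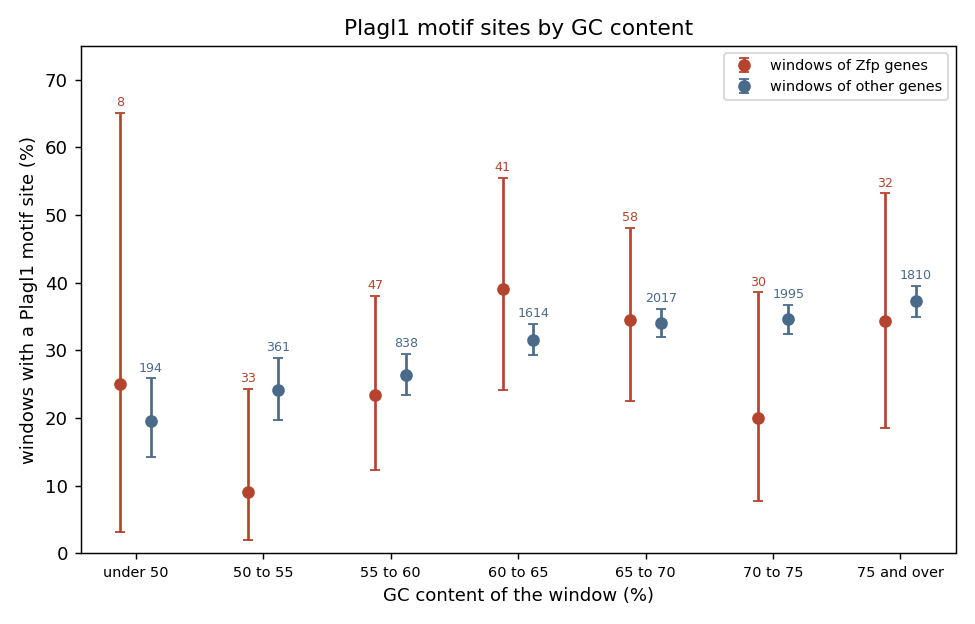
Share of windows with a Plagl1 motif site (percent, vertical) by GC content of the window (percent, horizontal) for windows of Zfp genes (red) and of other protein-coding genes (blue). Points are shares, bars exact Clopper-Pearson 95% intervals and numbers the windows in each bin; the Zfp point is above the other in 3 bins and below it in 4.

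Among Zfp genes the number of sites was 0 in 182, 1 in 56, 2 in 9, 3 in 2 and 5 in 2. The best score per gene had a median of 6.01 in Zfp genes with a site (5.86 to 6.19) and 5.99 in other genes (5.98 to 6.00). The 90 sites had 79 distinct sequences, with 44 on the plus strand of the genome and 46 on the minus strand. The fifth base, which is G or A in every site, was G in 66.7% of sites in Zfp windows and A in 33.3%, against 56.5% and 43.5% of 3700 sites in windows of other genes. Zfp521, a regulator of osteoblast, adipocyte and neural differentiation, had its 5 sites, the best scoring 6.34, in a window of 57.7% GC, and several of them overlap. Zfp523, a close relative of Zfp143, and Zfp638, an RNA-binding nuclear protein, had 3 sites each, with best scores of 5.71 and 5.97 in windows of 79.1% and 69.2% GC.

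A search for the deposited site sequences in the RefSeq promoters, on both strands, found at least 1 in 70 of 210 Zfp genes with a window (33.3%, 27.0 to 40.1) and 35 of 95 Zfp genes without one (36.8%, 27.2 to 47.4). The share was 40.9% in other genes with a window (39.8 to 42.0) and 38.3% in other genes without (37.3 to 39.3), and 39.4% over all 17492 promoters. Limited to sequences at or above the median score, it was 14.8% in Zfp genes with a window (10.3 to 20.3) and 23.2% in Zfp genes without one (15.1 to 32.9). It was 23.9% in other genes with a window, 23.3% in other genes without and 23.5% over all promoters. The sequences searched came from the deposited windows, and 1493 of the 5753 sites lie inside a RefSeq promoter. Promoters with such a site match by construction, so these shares are not independent of the window list.

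Fixed letter strings of well-known promoter motifs were searched in the same promoters on both strands, each counted on its own even where matches of different motifs overlap. CCAAT, bound by NF-Y, was in 48.6% of promoters of Zfp genes with a window (41.6 to 55.5), 54.7% of those without, 40.5% of other genes with a window (39.4 to 41.5) and 39.2% of all. GGGGCGGGG, bound by Sp and Klf factors, was in 13.8% of promoters of Zfp genes with a window (9.45 to 19.2), 5.26% of those without, 24.9% of other genes with a window (24.0 to 25.9) and 15.5% of all. The Ets motif CCGGAAGT was in 10.0%, 9.47%, 9.38% and 5.28% of the same 4 sets. GCGCATGCG (Nrf1) was in 5.71%, 2.11%, 4.30% and 2.41%, and AAGATGGCG (Yy1) in 3.81%, 1.05%, 3.54% and 1.92%. CTCGCGAGA (Zbtb33) was in 0.952% of promoters of Zfp genes with a window, none of the 95 without, 1.80% of other genes with a window and 1.03% of all.

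The string ACTACAATT, part of the motif that Zfp143 and Thap11 recognise at promoters, was in 9 of 210 promoters of Zfp genes with a window (4.29%, 1.98 to 7.98). It was in 1 of 95 Zfp genes without a window, Zfp93 (1.05%, 0.0266 to 5.73), an interval that covers the share of those with one. It was in 66 of 8071 other genes with a window (0.818%, 0.633 to 1.04) and in 0.543% of all promoters. The 9 stretches are shown because 8 of them go on with the same CCC after the string. They are on the strand of the match, from RefSeq GRCm38.p6, with the string in capitals.
Zfp1, chr8:111643405-111643443, minus strand: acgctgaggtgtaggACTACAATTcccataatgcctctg
Zfp108, chr7:24254714-24254752, minus strand: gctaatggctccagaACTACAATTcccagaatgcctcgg
Zfp111, chr7:24208372-24208399, minus strand: acttACTACAATTgtctttcatgccatt
Zfp128, chr7:12881150-12881188, minus strand: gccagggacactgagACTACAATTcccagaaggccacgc
Zfp180, chr7:24081862-24081900, minus strand: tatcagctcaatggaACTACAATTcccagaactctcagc
Zfp454, chr11:50887651-50887689, plus strand: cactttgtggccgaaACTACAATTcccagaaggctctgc
Zfp58, chr13:67500527-67500565, plus strand: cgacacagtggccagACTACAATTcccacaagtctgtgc
Zfp692, chr11:58307006-58307044, plus strand: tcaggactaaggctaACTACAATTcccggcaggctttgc
Zfp933, chr4:147848427-147848465, minus strand: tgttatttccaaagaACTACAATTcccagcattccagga
The Zfp111 stretch is shorter because the match lies at the edge of the promoter, and it is the exception that goes on with other bases. In the rest, the middle of the match lay between 160 and 9 bp upstream of the start. Of the 9 genes, 7 lay in Zfp clusters, and Zfp108, Zfp111 and Zfp180 in the same cluster on chromosome 7. The windows of the 9 genes ran from 45.3% GC at Zfp933 to 71.6% at Zfp1. The match lay inside the window at Zfp108, Zfp128 and Zfp933, and outside it at the others. Zfp143 itself had a window with its midpoint 46 bp from a gene end, at 58.7% GC and without a Plagl1 site. A match of letters is a description and not a bound site.

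The 116 Zfp genes without a window differed among themselves in how far the nearest window was. It lay within 3 kb of an end in 33, within 10 kb in 55 and beyond 100 kb in 30, and 44 had a window inside the gene. Of the 95 with a RefSeq start, 30 had a window within 1 kb of a start that is not the outermost end of the gene, and 65 had none there. The 30 had a median promoter GC of 54.0% (49.3 to 58.0) and CpG of 4.01 per 100 steps (3.01 to 6.35). The 65 had 49.0% GC (47.7 to 51.3) and 2.01 CpG per 100 steps (1.67 to 2.68). Just inside the 1 kb limit lay Zfp948 (977 bp), Zfp959 (959 bp) and Zfp131 (667 bp), and just outside it Zfp219 (1006 bp), Zfp335 (1185 bp) and Zfp688 (1244 bp). All 3 just outside were among the 30 with a window at another start.

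Repeated sequence moved with the absence of a window inside the clusters. A promoter held at least 1 stretch of 31 bases found in the promoter of another gene in 14.8% of Zfp genes with a window (10.3 to 20.3), against 34.7% of Zfp genes without (25.3 to 45.2). Inside clusters the shares were 14.6% with a window (20 of 137) and 50% without (29 of 58, 36.6 to 63.4), and outside clusters 15.1% (11 of 73) and 10.8% (4 of 37). In other genes they were 16.1% with a window and 23.1% without. Overlapping promoters of neighbouring genes count as shared too. Reads from repeated sequence cannot always be placed, the sources used here do not say how the authors handled such reads, and the part of this in the absence of windows was not tested.

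Zfp978, in the chromosome 4 cluster, had 7 windows along its gene body of 147124882 to 147392027. Zfp991 and Zfp988, neither with a window at an end, also lie within this span, so the windows cannot be credited to Zfp978 alone. The window at the end of Zfp978 (147124829 to 147125029) was 76.6% GC and held 2 sites, the better scoring 6.03. The other 6 ran from 41.8% to 62.2% GC with 0 to 8.5 CpG per 100 steps, and held none. A further window inside the gene was present in 19 of the 251 Zfp genes. Those with 3 included Zfp53 and Zfp608, and the window inside Zfp521 (13930006 to 13930206) was 48.3% GC with no site.

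A list of 39 Zfp genes whose products have a known role had 24 with a window, beside 68.4% of all Zfp genes. A Plagl1 site lay in windows of 6 of the 24, beside 27.5% of all Zfp genes with a window: Zfp64, Zfp384, Zfp512, Zfp521, Zfp609 and Zfp687. Among regulators of general processes, windows were found at Zfp143 (58.7% GC), the GC-box binding Zfp148 (73.6%), Zfp281 (73.6%), known from embryonic stem cells, and Zfp207 (61.2%), which acts at the mitotic spindle. Zfp326, a splicing and elongation factor, had a window of 76.6% GC with 17.5 CpG per 100 steps, and Zfp410, an activator of Chd4, one of 67.2% GC. Of KRAB factors that silence retroviral elements, Zfp809 had a window of 59.7% GC and Zfp932 one of 54.7%, neither with a site. No window was found at an end of Zfp42 (Rex1, of pluripotent cells; nearest 408158 bp away), Zfp750 (of epidermis; 30853 bp) or Zfp819 (27349 bp). Zfp57, which maintains imprints, and Zfp423, of adipose and cerebellar development, lacked one at an end (nearest 1589 and 3007 bp) but had one at another RefSeq start. Zfp467, known from fat and bone cell fate, likewise had one 1785 bp from the end, while Zfp503 (1595 bp) had one inside the gene but at no RefSeq start.

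The partners that KRAB proteins recruit had a window in 24 of 29 genes (82.8%, 64.2 to 94.2), beside 46.6% of all protein-coding genes. Trim28 had 2 windows, with 75.6% GC and 17 CpG per 100 steps in the nearest and 2 Plagl1 sites, the better scoring 6.24. Setdb1, the H3K9 methyltransferase, had a window of 66.7% GC without a site, and so had the HP1 genes Cbx1 (71.1%), Cbx3 (64.7%) and Cbx5 (56.7%). Sites were found at 9 of the 24, beside 33.4% of all protein-coding genes with a window, among them Hdac1 (score 6.98), Chd4 (5.90) and Sumo2, with 4 sites and a best score of 6.73. The DNA methyltransferases Dnmt1 and Dnmt3a, the remodeller Chd3, the HUSH subunit Tasor and the methyltransferase Ehmt2 had no window at an end, whereas Dnmt3b had one of 75.6% GC.

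Values of other zinc finger families are set beside 46.6% of all protein-coding genes with a window, and 33.4% of those with a site. A window was found at 34 of 41 Zbtb genes, which carry a BTB domain, 9 of 11 Zkscan genes, 8 of 16 Zscan genes, 12 of 17 Klf genes and none of 5 Zic genes. Median GC of the nearest window was 69.9% in Zbtb, 72.1% in Klf, 64.7% in Zkscan and 62.7% in Zscan genes, against 64.2% in the Zfp genes with a window. By these medians, Zkscan and Zscan genes, which encode SCAN domain proteins related to KRAB zinc fingers, were nearer to the Zfp genes than Zbtb and Klf genes were. The genes are few and the ranges overlap. They were 53.7 to 79.6% in Zkscan, 60.2 to 71.1% in Zscan, 52.7 to 83.1% in Zbtb and 58.7 to 80.6% in Klf genes. A site was present in 12 of 34 Zbtb, 5 of 9 Zkscan, 2 of 8 Zscan and 5 of 12 Klf genes with a window.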

How the data were processed

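Values are those of 3 ATAC-seq libraries pooled by the authors, deposited as a window table and a motif site list. Per the submitters' processing notes, the tools were MACS2 2.1.1, Bowtie2 2.3.5, cutadapt 1.18, FastQC 0.11.8, edgeR, Picard and bedtools, and the genome was mm10. Per the file headers, HOMER's annotatePeaks searched a union peak list for the Plagl1 motif. The sources used here do not say how that list was chosen. The deposited GC value is the fraction of bases that are G or C, given here in percent. The deposited CpG value is the ratio of CpG dinucleotides to steps between neighbouring bases, given here per 100 steps. The deposited score of a site is HOMER's log-odds score.

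Windows were joined to RefSeq genes (GRCm38.p6) by the distance of the midpoint to either gene end, and clusters, medians and motif matches were computed in Python 3.11.15 with numpy 2.4.6, pandas 2.3.3 and scipy 1.17.1. Intervals are 95% Clopper-Pearson for shares and binomial order-statistic intervals for medians. Where RefSeq lists several starts, the promoter of the outermost was used for medians and motif shares. Stretches with a deposited site were taken at any listed start. All 1493 sites inside a RefSeq promoter had the bases of the reference there. The joining and interval code was tested on simulated data. Members and gene lists were chosen with earlier results of these data known. Named were the Zfp genes with the highest scores, most sites, most windows, extremes of GC and CpG, those nearest the 1 kb limit, up to 10 genes of the 3 clusters with most windows, and the list of known roles. Genes of the motif searches, shared windows and further gene-body windows were named after their values were seen. Protein features were not analysed here.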

Additional observations from a re-analysis of the deposited data

How the results depend on the processing

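Of 40 values under the alternatives for 7 results, 35 stayed within the interval, or within 1.5 times the count, of the value reported. The number of Zfp genes with a window was between 220 and 284, and the median GC of their windows between 63.2 and 64.2%. The share in a cluster, 62.5%, was 53.0% with gaps under 200 kb and 48.6% for clusters of 5 or more genes. Limiting sites to those at or above the median score gave 16.3% of genes in place of 27.5%, 16.5% of windows in place of 27.7% and 14.8% of promoters in place of 33.3%. That limit removes sites by construction. No paired analysis was possible because the values are pooled over libraries, and for the same reason no library could be left out. Depth per window is unknown.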
